A study of Mus musculus with 10 samples.

Results

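The 59 genes described here encode heat shock proteins, J-domain (DnaJ) proteins and heat shock factors measured in mouse thymus. They are all genes of the A, B and C classes of Dnaj symbols, all genes with Hspa, Hspb, Hspd, Hspe or Hsph symbols and all numbered Hsf genes for which the array has a feature annotated to 1 gene symbol. Each is represented by its feature of highest mean signal, and they are 59 of the 14860 genes with such a feature. They comprise 4 Dnaja, 11 Dnajb, 23 Dnajc, 10 Hspa, 7 Hspb, 1 Hsph and 3 Hsf genes, the Hspb count including Hspbap1, which is named for its product's binding to a small heat shock protein. Hsf1, Hspa1b, Hspa8, Hspb1, Hspd1, Hspe1 and Dnajc3 have no such feature and were not analysed here, and Hsp90 genes fall outside the symbols and are given only among the other chaperones.

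The study profiled whole thymi of 4 to 5 week old mice on a C57BL6/129 hybrid background with a whole-transcript expression array. The 4 genotypes were p53(246/246) mdm2(-/-), with 2 samples, p53(-/-) mdm2(-/-), with 2 samples, p53(246/246) mdm2(+/+), with 3 samples, and p53(-/-) mdm2(+/+), with 3 samples. They are called mutant p53 mdm2-null, p53-null mdm2-null, mutant p53 mdm2 wild-type and p53-null mdm2 wild-type below. No sample carried wild-type p53, so the mutant allele is always set against absence of p53. The labels give no sex and do not say which thymi share a litter or a preparation, so the p-values measure the spread between these samples. The array names fall into 3 sets by their prefix: both mutant p53 mdm2-null samples form 1 set, both p53-null mdm2-null samples another, and all 6 mdm2 wild-type samples the last. The effects of mdm2, of p53 without mdm2, and of their interaction cannot be told apart from the array-name set, whereas the p53 comparison with wild-type mdm2 lies within 1 set.

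Values are log2 signals, and a difference of 1 is a 2-fold change. Sample medians over the 23332 features lay between 6.10 and 6.26. The Mdm2 feature checked the labels: it measured 8.43, 8.35, 8.28 and 8.40 in the 4 mdm2-null samples, against a mean of 9.56 ± 0.06 (SD, n = 6) in mdm2 wild-type samples. The deficit was 1.19 on the log2 scale (SE 0.07, limma adjusted p = 9.24e-05). As the tissue is bulk thymus, fewer cells of a type and less RNA per cell cannot be told apart. The 9 measured thymocyte markers averaged 10.45 to 10.85 in mdm2-null samples and 10.76 to 10.90 in mdm2 wild-type samples, and none passed the test for mdm2 loss. Of these 9, 0 had a positive change, and their median log2 change was −0.18, against −0.02 over all features. Rag2 (−0.61, limma adjusted p = 0.0528) and Cd3g (−0.39, limma adjusted p = 0.0606) were nearest to passing. The 10 measured liver markers averaged 7.92 and 9.32 in mutant p53 mdm2-null and 6.87 and 9.51 in p53-null mdm2-null samples, against 4.61 to 5.00 in mdm2 wild-type samples. All 10 passed the test as higher with mdm2 loss. All 12 adipocyte markers had positive changes, of which 3 passed. Their part in the chaperone values was not tested.

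Heat shock proteins of the Hsp70 class (Hspa genes) bind unfolded stretches of other proteins and release them in cycles of ATP hydrolysis. J-domain proteins deliver clients to Hsp70 and stimulate that hydrolysis, and Hsp110 proteins such as Hsph1 exchange the nucleotide so that the cycle can restart. When unfolded protein accumulates in the cytosol, heat shock factors bind promoters of a subset of these genes. They bind there at repeats of the bases GAA and its reverse complement TTC. The name heat-inducible is used here for a fixed list, of which 8 genes were measured: Hspa1a, Hspa4l, Hspa2, Hsph1, Dnaja1, Dnajb1, Dnajb4 and Hspb8. The list was not chosen by these repeats, and induction by heat was not measured. The endoplasmic reticulum and mitochondria have sets of their own, led by Hspa5 (BiP) and Hspa9 (mortalin).

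Promoter sequences are shown for the 4 heat-inducible genes on which the results turn and for Hspa5, the endoplasmic reticulum counterpart. They come from RefSeq (build GRCm38.p6), run 5′ to 3′ on the gene's strand from 250 bases before the start to 50 bases after it, and capitals mark matches to the motifs searched. The motifs, searched on both strands, were the pairs GAANNTTC and TTCNNGAA, the 3-unit forms GAANNTTCNNGAA and TTCNNGAANNTTC, which contain both pairs, and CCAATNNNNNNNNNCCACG, the endoplasmic reticulum stress element.
Hsph1, chr5:149636266-149636565, minus strand: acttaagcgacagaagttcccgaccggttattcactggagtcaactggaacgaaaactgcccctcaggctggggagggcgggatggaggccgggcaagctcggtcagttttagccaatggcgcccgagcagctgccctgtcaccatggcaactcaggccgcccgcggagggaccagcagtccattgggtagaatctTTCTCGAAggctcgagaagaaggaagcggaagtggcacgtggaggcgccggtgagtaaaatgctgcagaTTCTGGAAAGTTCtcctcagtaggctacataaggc
Hspa1a, chr17:34972107-34972406, minus strand: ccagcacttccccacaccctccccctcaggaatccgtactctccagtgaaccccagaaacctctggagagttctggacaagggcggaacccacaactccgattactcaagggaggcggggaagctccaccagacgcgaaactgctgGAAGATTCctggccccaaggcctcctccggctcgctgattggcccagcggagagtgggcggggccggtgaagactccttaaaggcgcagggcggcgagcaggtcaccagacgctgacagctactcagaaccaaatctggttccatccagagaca
Dnaja1, chr4:40722218-40722517, plus strand: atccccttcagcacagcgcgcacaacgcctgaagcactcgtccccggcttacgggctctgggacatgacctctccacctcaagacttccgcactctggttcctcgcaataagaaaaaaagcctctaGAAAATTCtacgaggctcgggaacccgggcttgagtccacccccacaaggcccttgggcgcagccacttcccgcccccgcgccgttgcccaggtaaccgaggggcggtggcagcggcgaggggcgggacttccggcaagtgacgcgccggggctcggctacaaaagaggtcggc
Dnajb1, chr8:83607925-83608224, plus strand: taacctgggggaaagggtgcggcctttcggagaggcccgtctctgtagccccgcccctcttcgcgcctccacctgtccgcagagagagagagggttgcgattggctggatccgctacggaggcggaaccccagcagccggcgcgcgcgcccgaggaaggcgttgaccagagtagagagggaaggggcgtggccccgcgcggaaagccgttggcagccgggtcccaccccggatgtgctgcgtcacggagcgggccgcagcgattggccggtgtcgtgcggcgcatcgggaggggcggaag
Hspa5, chr2:34771840-34772139, plus strand: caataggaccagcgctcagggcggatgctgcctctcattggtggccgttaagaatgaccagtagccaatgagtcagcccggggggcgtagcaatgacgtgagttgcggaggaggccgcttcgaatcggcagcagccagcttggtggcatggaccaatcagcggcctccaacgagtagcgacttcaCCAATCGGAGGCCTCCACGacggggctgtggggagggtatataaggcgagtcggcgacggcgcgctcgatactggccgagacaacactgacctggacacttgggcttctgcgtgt

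Of the 59 genes, 47 were matched to a RefSeq promoter. The GAANNTTC pair was present for 9 of the 47 (19.1%), namely Dnaja1, Dnaja4, Dnajc27, Dnajc5g, Hspa1a, Hspb3, Hspb6, Hspb8 and Hsph1, while 7.86% of all 32851 promoters and 9.04% of all 27025 genes hold it. TTCNNGAA was present for Dnajb4, Dnajc10 and Hsph1 (6.38% of the 47), while 8.52% of all promoters and 9.6% of all genes hold it. Either pair was present for 11 of the 47 (23.4%), while 15.1% of all promoters and 17% of all genes hold at least 1 of them. Hsph1 alone among the 47 had a 3-unit form, which 0.603% of all promoters and 0.662% of all genes hold. In the window shown, its single pair lies 54 to 47 bases before the start and its 3-unit match at bases 16 to 28 after it. The pair of Hspa1a lies 104 to 97 bases and that of Dnaja1 124 to 117 bases before the start, and the letters searched are not in the Dnajb1 window shown. The endoplasmic reticulum stress element was found for Hspa5 alone of the 47, 65 to 47 bases before the start. It is held by 0.119% of all promoters and 0.137% of all genes.

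The heat-inducible genes Hsph1, Hspa1a, Dnajb1 and Dnaja1 each had its highest signals in the same 3 samples, which came from 3 genotypes. These were mutant p53 mdm2 wild-type replicate 3, p53-null mdm2 wild-type replicate 3 and p53-null mdm2-null replicate 2. Hsph1, the Hsp110 nucleotide exchange factor, measured 8.56 and 8.23 in mutant p53 mdm2-null and 9.04 and 9.79 in p53-null mdm2-null thymi. It measured 9.22, 8.95 and 10.36 in mutant p53 mdm2 wild-type and 8.52, 8.16 and 10.00 in p53-null mdm2 wild-type thymi. The replicate 3 samples of both mdm2 wild-type groups stood more than 1 log2 unit above the others of their group. The within-group SD, pooled over the 4 groups, was 0.75, the largest of the 59 genes and at percentile 98.5 of all features.

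Hspa1a encodes the inducible Hsp70, and its near-identical copy Hspa1b may contribute to the signal. It had 6.11 and 5.97 in mutant p53 mdm2-null thymi and 6.27 and 6.66 in p53-null mdm2-null thymi. In mdm2 wild-type thymi it had 6.08, 6.18 and 6.67 with mutant p53 and 5.08, 5.99 and 6.58 without p53. The 3 highest values, 6.58 to 6.67, lay close together, and replicate 1 of the p53-null mdm2 wild-type group stood below all others. Its within-group SD was 0.49.

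Dnajb1, the main stress-inducible cytosolic J-domain partner of Hsp70, measured 8.82 and 8.41 in mutant p53 mdm2-null and 8.38 and 9.12 in p53-null mdm2-null thymi. Mutant p53 mdm2 wild-type thymi had 8.90, 8.98 and 9.37, and p53-null mdm2 wild-type thymi 8.44, 8.54 and 9.28. Dnaja1, another cytosolic J-domain protein, measured 7.69 and 7.75 in mutant p53 mdm2-null and 8.54 and 8.78 in p53-null mdm2-null thymi. Both genes peaked in the same 3 samples as Hsph1. Dnaja1 had 8.59, 8.56 and 9.46 in mutant p53 mdm2 wild-type and 8.15, 8.27 and 8.82 in p53-null mdm2 wild-type thymi, so that its 2 lowest values were those of the mutant p53 mdm2-null group. The within-group SDs were 0.39 for Dnajb1 and 0.37 for Dnaja1.

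**Figure D1:**
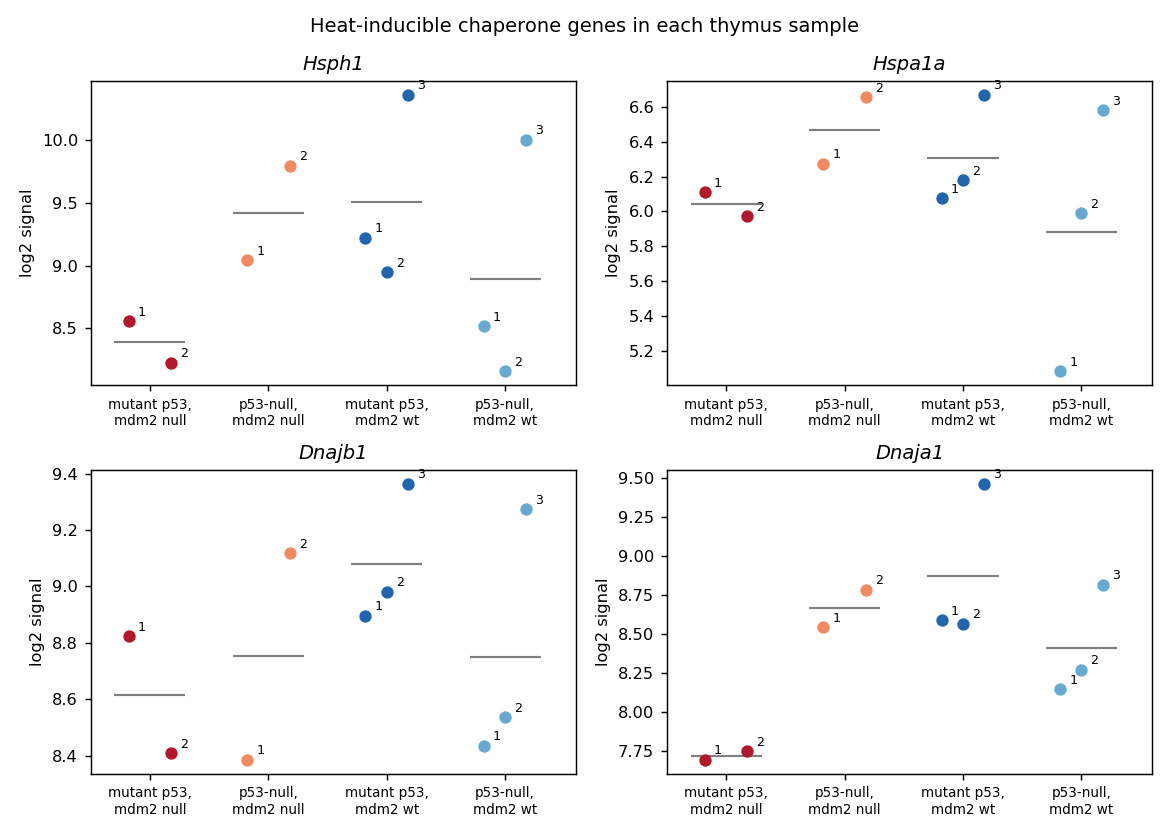
Log2 signal of Hsph1, Hspa1a, Dnajb1 and Dnaja1 (vertical axes) in each thymus by genotype group, with the replicate number beside each point and the group mean as a line. In every panel the 3 highest points are replicate 3 of both mdm2 wild-type groups and replicate 2 of the p53-null mdm2-null group.

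Hsph1 was the gene of largest spread, so its 3 highest samples serve as a description and not as a test. Among the 59 genes, 4 others shared them: Hspa1a, Dnajb1, Dnaja1 and Dnajb12, which encodes a J-domain protein of the endoplasmic reticulum membrane. Counting Hsph1 itself, that is 5 of 59 (8.47%), against 258 of 23332 features (1.11%). Of the 8 measured heat-inducible genes, 4 had these samples, counting Hsph1, which defines them, and the other 4 were Hspa4l, Hspa2, Dnajb4 and Hspb8. In mutant p53 mdm2 wild-type replicate 3, Dnajb4 (9.84, beside 10.00 and 10.11) and Hspa2 (4.70, beside 4.82 and 4.98) were the lowest of their group. In p53-null mdm2 wild-type replicate 3 both were the highest of their group (10.16 and 4.93). In p53-null mdm2-null replicate 2, Dnajb4 (9.923, beside 9.595) was the higher of its group and Hspa2 (4.885, beside 4.895) the lower. Ranking only the 6 mdm2 wild-type samples, which lie in 1 array-name set, the 2 highest of Hsph1 were also the 2 highest for 7 of 59 genes counting Hsph1 (11.9%), with Hsf2 and Hspa4l added, against 7.16% of all features. Hspb8, a small heat shock protein, did not follow: it measured 7.72 and 6.49 in mutant p53 mdm2-null and 6.82 and 6.33 in p53-null mdm2-null thymi. In mdm2 wild-type thymi it had 6.82, 7.09 and 6.76 with mutant p53 and 7.36, 7.21 and 6.77 without p53, and its highest sample, mutant p53 mdm2-null replicate 1, was among the lower ones for Hsph1.

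Averaged over the 8 heat-inducible genes, the log2 signal was 7.44 and 7.18 in mutant p53 mdm2-null, 7.49 and 7.71 in p53-null mdm2-null, 7.58, 7.65 and 7.97 in mutant p53 mdm2 wild-type and 7.26, 7.31 and 7.89 in p53-null mdm2 wild-type thymi. The within-group SD of that average was 0.26. The average includes Hsph1, which defines the 3 samples, so its height in them is a description and not a test. Chaperones and co-chaperones outside the symbol rule partly followed: 7 of 28 measured genes had the same 3 highest samples, against 1.11% of all features. The list was chosen with earlier results of these data known. The 7 were the Hsp90 co-chaperones Chordc1, Stip1, Fkbp4, Fkbp5 and Cacybp, the Hsp70 co-chaperone St13, and Bag2, an inhibitor of Hsp70-associated ubiquitination. Among the others, Ptges3 and Bag3 were the lowest of their group in mutant p53 mdm2 wild-type replicate 3 (7.53 and 6.52). In p53-null mdm2 wild-type replicate 3, Ptges3 was the highest of its group (7.89) and Bag3 was not (6.64, beside 6.27 and 6.645). Chordc1 measured 9.39 and 9.27 in mutant p53 mdm2-null, 9.40 and 9.91 in p53-null mdm2-null, 9.78, 9.76 and 10.40 in mutant p53 mdm2 wild-type and 9.41, 9.40 and 10.08 in p53-null mdm2 wild-type thymi.

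In 2 other stress lists the counts were at the share of all features, 1.11%. Of 21 immediate early genes, among them Fos, Jun and Egr1, 0 had these 3 highest samples, as did 0 of 24 unfolded protein response genes outside the rule. The immediate early average was 7.17 in p53-null mdm2-null replicate 2, beside 7.19 in the other sample of that group. It was 7.06 in mutant p53 mdm2 wild-type replicate 3, beside 7.23 and 7.34 in its group, and 7.265 in p53-null mdm2 wild-type replicate 3, beside 7.129 and 7.267. The unfolded protein response average stayed between 8.34 and 8.52 in all 10 samples. It was the highest of its group in p53-null mdm2-null replicate 2 (8.45) and p53-null mdm2 wild-type replicate 3 (8.48), and the lowest of its group in mutant p53 mdm2 wild-type replicate 3 (8.44). Among thymocyte markers, 2 of 9, Cd8b1 and Dntt, had the same 3 highest samples, and none of the liver, adipocyte, muscle, erythroid, pericyte or thymic epithelium markers did.

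**Figure D2:**
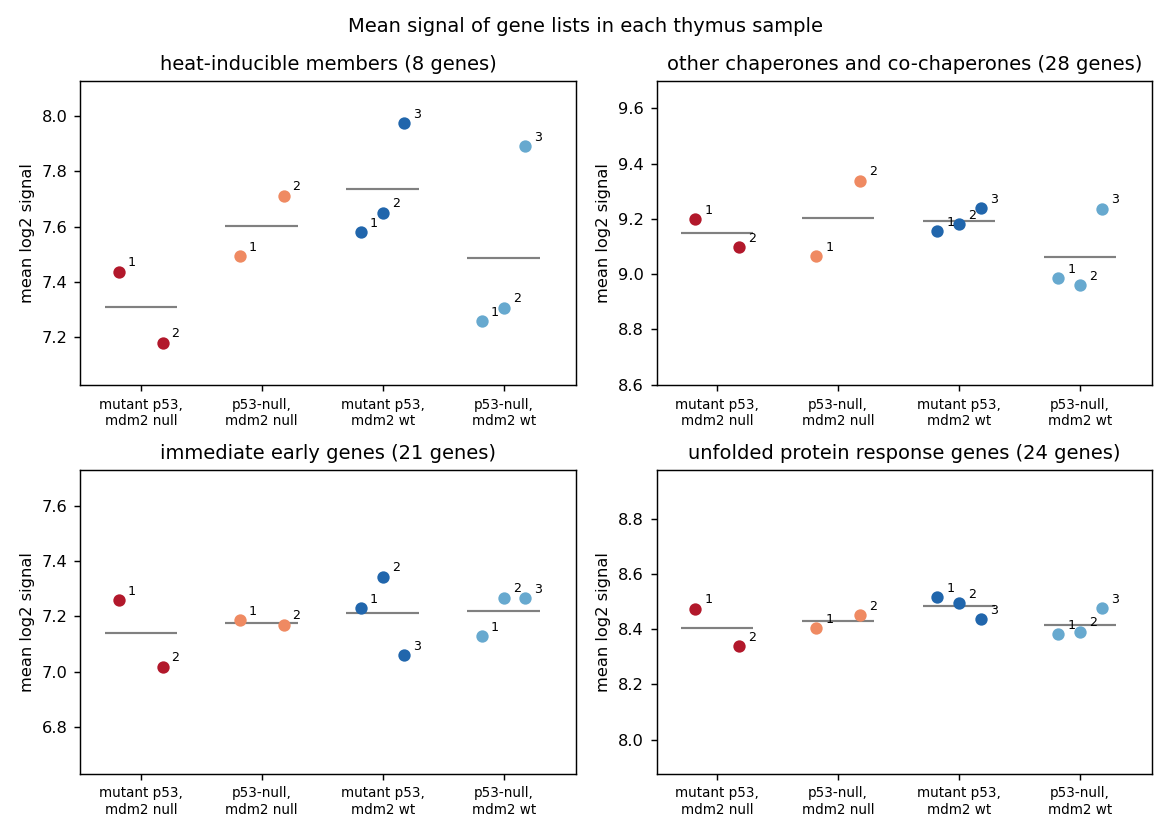
Mean log2 signal of 4 gene lists (vertical axes, equal span in each panel) in each thymus by genotype group, with replicate numbers and group means as lines. The heat-inducible average reached 7.71, 7.97 and 7.89 in the 3 samples of highest Hsph1, the unfolded protein response average 8.45, 8.44 and 8.48 and the immediate early average 7.17, 7.06 and 7.265, each in the order p53-null mdm2-null, mutant p53 mdm2 wild-type, p53-null mdm2 wild-type. The heat-inducible average, unlike the other lists, contains Hsph1, which defines these samples, so its height in them is not a test.

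Most of the 59 genes were steadier than a typical feature. Their median within-group SD was 0.158, against 0.198 over all features, and 19 of 59 lay above the median of all features. Among features above the median signal, where 39 of the 59 lie, the medians were 0.155 and 0.184. The range ran from 0.034 for Dnajc11, a mitochondrial outer membrane protein tied to cristae organisation, to 0.748 for Hsph1, and 8 genes exceeded the upper quartile of all features, 0.31. By family, the median SD was 0.137 for Dnaja, 0.212 for Dnajb, 0.13 for Dnajc, 0.166 for Hspa, 0.198 for Hspb and 0.134 for Hsf. The signals of 10 genes (Dnajb3, Dnajb7, Dnajb8, Dnajc22, Dnajc5b, Dnajc5g, Hsf3, Hspa12a, Hspb3 and Hspb7) averaged below the lower quartile of feature means, 4.37.

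**Figure D3:**
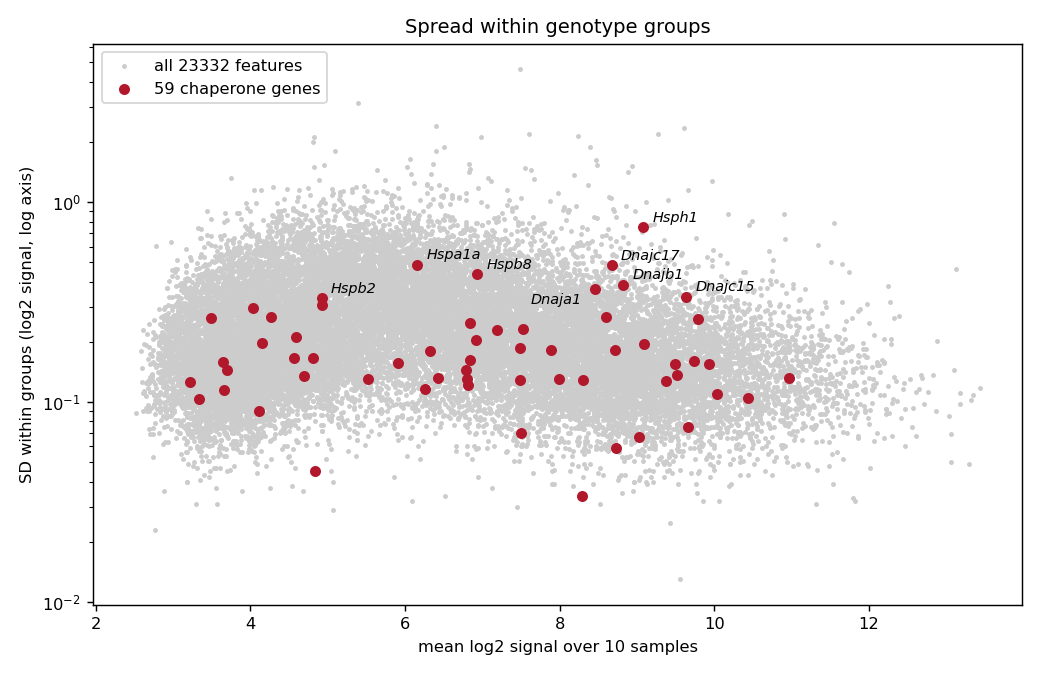
Within-group SD of the log2 signal (vertical, log axis) against the mean log2 signal over 10 samples (horizontal) for all 23332 features in grey and the 59 chaperone genes in red, with the 8 genes of largest SD named. Hsph1, at 0.75, stands highest of the 59.

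No chaperone gene passed the test for mdm2 loss. Across both p53 genotypes 902 of 23332 features (3.87%) passed at an adjusted p under 0.05 and 0 of the 59 did. At an unadjusted p under 0.05 the counts were 10 of 59 (16.9%) and 21% of all features. The median log2 change of the 59 was 0.02 and that of all features was −0.02. Changes were positive for 31 of the 59 (52.5%) and negative for 28, against 46.2% positive over all features. Medians by family were 0.15 for the 4 Dnaja genes, 0.02 for Dnajb, −0.03 for Dnajc, 0.07 for Hspa, −0.09 for Hspb and −0.05 for Hsf. The 8 heat-inducible genes had a median of −0.16, the 8 endoplasmic reticulum genes −0.06 and the 7 mitochondrial genes 0.08, with no gene passing in any of them.

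Dnajc17, a nuclear J-domain protein with an RNA recognition motif, was nearest to passing. It measured 8.40 and 9.69 in mutant p53 mdm2-null and 9.09 and 9.69 in p53-null mdm2-null thymi, against 8.41, 8.49 and 7.93 in mutant p53 mdm2 wild-type and 8.15, 8.17 and 8.72 in p53-null mdm2 wild-type thymi. Its mdm2-null mean was 9.22 ± 0.61 (SD, n = 4) and its mdm2 wild-type mean 8.31 ± 0.28 (SD, n = 6). The difference of 0.90 had a 95% interval of 0.33 to 1.47 and a limma adjusted p of 0.0809. Replicate 1 of the mutant p53 mdm2-null group lay inside the mdm2 wild-type range, and without it the difference was 1.18 with an adjusted p of 0.0371 in the limma fit.

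Hspa13, an Hsp70-like protein of the endoplasmic reticulum, had 7.71 and 7.38 in mutant p53 mdm2-null and 7.57 and 7.85 in p53-null mdm2-null thymi. The mdm2 wild-type values were 8.18, 8.15 and 8.06 with mutant p53 and 7.77, 7.95 and 8.22 without p53. The groups overlapped only through p53-null samples, and the change of −0.43 (SE 0.12) had a limma adjusted p of 0.0822. Dnajc15, a J-domain protein of the inner mitochondrial membrane, had 9.29 and 9.42 in mutant p53 mdm2-null and 8.65 and 9.66 in p53-null mdm2-null thymi. In mdm2 wild-type thymi it measured 9.97, 9.49 and 9.82 with mutant p53 and 9.92, 9.97 and 10.21 without p53. Its change of −0.64 (SE 0.20, limma adjusted p = 0.0984) was the most negative of the 59. Dnajb3, known for testis expression and here near the low end of the signal range, had 4.02 and 4.46 in mutant p53 mdm2-null and 4.58 and 4.27 in p53-null mdm2-null thymi. It measured 4.16, 4.03 and 3.47 in mutant p53 mdm2 wild-type and 3.80, 3.53 and 4.00 in p53-null mdm2 wild-type thymi, a change of 0.50 (SE 0.17, limma adjusted p = 0.123).

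The mdm2 groups did not overlap for 2 of 59 genes (3.39%), against 1971 features (8.45%). Dnajb2, a J-domain protein with ubiquitin interaction motifs, measured 5.01 and 4.89 in mutant p53 mdm2-null and 4.96 and 4.89 in p53-null mdm2-null thymi, against 4.71 to 4.84 in mdm2 wild-type thymi. Dnajc30, a mitochondrial J-domain protein, measured 7.65 and 7.54 in mutant p53 mdm2-null and 7.64 and 7.63 in p53-null mdm2-null thymi, against 7.28 to 7.52 in mdm2 wild-type thymi. Both steps were small, 0.16 and 0.20 on the log2 scale, with limma adjusted p of 0.214 and 0.170.

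Among the heat-inducible genes, Hsph1, Hspa1a, Dnajb1 and Dnaja1 had SEs of 0.46, 0.29, 0.22 and 0.30 for mdm2 loss, Hspa2 and Hspa4l SEs of 0.11 each, and the median SE of the 59 genes was 0.11. Hsph1 averaged 8.90 ± 0.68 (SD, n = 4) in mdm2-null and 9.20 ± 0.85 (SD, n = 6) in mdm2 wild-type thymi, a change of −0.29 with a 95% interval of −1.33 to 0.74. Its sign turned with the replicate number as a block, where the change was 0.19. Hspa1a averaged 6.25 ± 0.29 (SD, n = 4) in mdm2-null and 6.10 ± 0.57 (SD, n = 6) in mdm2 wild-type thymi, with an interval of −0.48 to 0.80. Its change of 0.16 turned to −0.063 when p53-null mdm2 wild-type replicate 1 was left out and to −0.014 when replicate 2 of the p53-null mdm2-null group was. The changes of Dnajb1 and Dnaja1 were −0.23 and −0.45, and the limma adjusted p of these 4 genes lay between 0.447 and 0.827. A change of 2-fold lay inside the interval of Hsph1 and of Dnaja1, whose interval ran from −1.11 to 0.22.

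Of the 8 measured endoplasmic reticulum genes, none differed with mdm2 loss beyond the test's threshold. Hspa5, the Hsp70 of the endoplasmic reticulum, measured 11.02 and 10.80 in mutant p53 mdm2-null and 11.11 and 10.95 in p53-null mdm2-null thymi. In mdm2 wild-type thymi it had 10.97, 11.14 and 10.99 with mutant p53 and 10.74, 10.87 and 11.05 without p53, and its change was 0.01 (SE 0.10). Its partners were also given: Dnajb11 (ERdj3) changed by 0.21 and Dnajb9 (ERdj4) by −0.28, with limma adjusted p of 0.267 and 0.334. Dnajb11 measured 9.83 and 9.50 in mutant p53 mdm2-null and 9.48 and 9.69 in p53-null mdm2-null thymi, against 9.25 to 9.57 in mdm2 wild-type thymi. Dnajb9 measured 8.82 and 8.63 in mutant p53 mdm2-null and 8.92 and 9.36 in p53-null mdm2-null thymi, against 9.01 to 9.42 in mdm2 wild-type thymi. The mdm2-null and mdm2 wild-type values of all 3 genes overlap.

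Hspa9, the mitochondrial Hsp70, measured 9.004 and 8.86 in mutant p53 mdm2-null and 8.31 and 8.88 in p53-null mdm2-null thymi, against 8.60 to 8.80 in mdm2 wild-type thymi. Hspa4, a cytosolic relative of Hsph1, had 9.73 and 9.67 in mutant p53 mdm2-null and 9.63 and 9.78 in p53-null mdm2-null thymi, against 9.54 to 9.79 in mdm2 wild-type thymi. Both changed by 0.08 with values that overlap. Hspa4, unlike Hsph1, stayed between 9.54 and 9.79 in all 10 samples. Hsf2, a transcription factor of the heat shock factor family, measured 7.06 and 7.25 in mutant p53 mdm2-null and 7.30 and 7.65 in p53-null mdm2-null thymi. It had 7.78, 7.53 and 7.86 in mutant p53 mdm2 wild-type and 7.56, 7.36 and 7.95 in p53-null mdm2 wild-type thymi, a change of −0.36 (SE 0.15, limma adjusted p = 0.203).

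In the lists outside the rule, counts were near the 3.87% of all features that passed for mdm2 loss. Of 28 other chaperones 1 passed: Hsbp1, which encodes a protein that binds heat shock factor trimers, was lower by 0.39 (a log2 change of −0.39, limma adjusted p = 0.0337). The next smallest p were those of Ptges3 (0.74, adjusted p = 0.0527), Bag3 (0.44, adjusted p = 0.0659) and Cct7 (0.23, adjusted p = 0.0998). Of 21 immediate early genes 1 passed, Btg2, with a log2 change of −0.48 (limma adjusted p = 0.0385), and of 24 unfolded protein response genes none did. The medians of these lists were 0.06, −0.03 and −0.06, close to the −0.02 of all features.

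**Figure D4:**
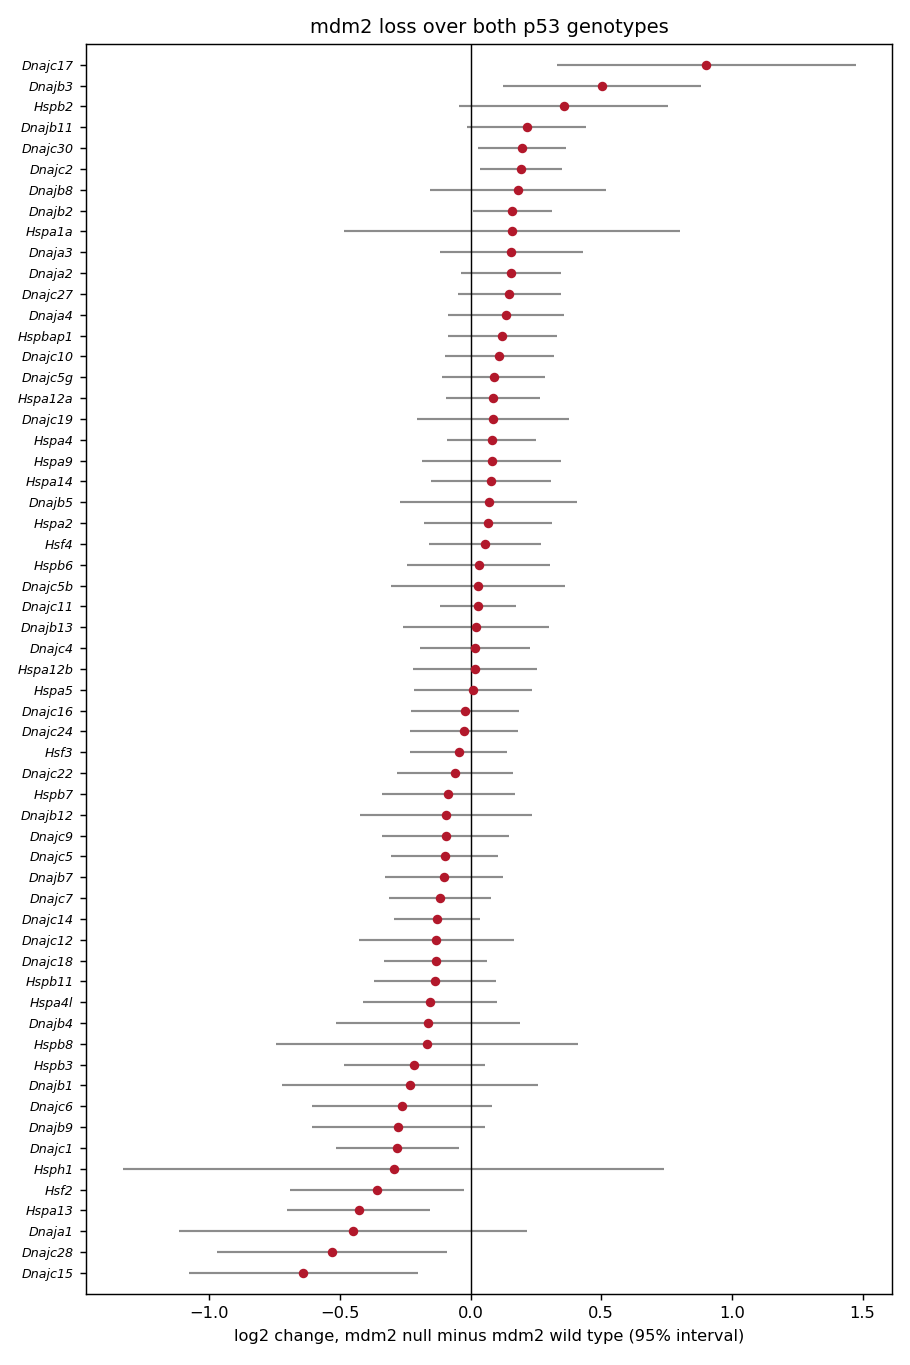
Log2 change with mdm2 loss over both p53 genotypes (horizontal; mdm2-null minus mdm2 wild-type) for each of the 59 genes, ordered by size, with 95% intervals from the limma fit. The widest interval is that of Hsph1, −1.33 to 0.74, and no gene had an adjusted p under 0.05.

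Within each p53 genotype, mdm2 loss again gave 0 passing chaperone genes. In mutant p53 thymi 3 features (0.0129%) passed, and in p53-null thymi 5 (0.0214%). At an unadjusted p under 0.05 the chaperone counts were 6 of 59 (10.2%) in each, against 16.4% of all features in mutant p53 thymi and 10.7% in p53-null thymi. In mutant p53 thymi the smallest p was that of Dnaja1, with a log2 change of −1.15 (SE 0.29, limma adjusted p = 0.128), followed by Hspa13 (−0.58, adjusted p = 0.154), Dnajc28 (−0.86, adjusted p = 0.155) and Dnajc1 (−0.45, adjusted p = 0.167). Dnajc28 measured 4.59 and 4.23 in mutant p53 mdm2-null thymi, against 4.86, 5.64 and 5.30 in mutant p53 mdm2 wild-type thymi. Dnajc1 (ERdj1) had 7.83 and 8.12 in mutant p53 mdm2-null thymi, against 8.47, 8.41 and 8.39 in mutant p53 mdm2 wild-type thymi. The 2 groups did not overlap for these 4 genes, as for 22 of the 59 genes (37.3%) and 36.1% of all features.

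In p53-null thymi the smallest p were those of Dnajc15 (−0.87, limma adjusted p = 0.320), Dnajb5 (0.42, adjusted p = 0.380), Dnajc17 (1.04, adjusted p = 0.380) and Dnaja3 (0.39, adjusted p = 0.387). Dnajb5 measured 6.32 and 6.17 in p53-null mdm2-null thymi, against 5.75, 5.92 and 5.80 in p53-null mdm2 wild-type thymi. Dnaja3, a mitochondrial J-domain protein, had 7.03 and 6.88 in p53-null mdm2-null thymi, against 6.38, 6.52 and 6.78 in p53-null mdm2 wild-type thymi. The 2 groups did not overlap for either gene, as for 15 of the 59 genes (25.4%) and 26% of all features. Hsph1 changed by −1.11 (SE 0.57) with mdm2 loss in mutant p53 thymi and by 0.53 (SE 0.57) in p53-null thymi.

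No chaperone gene passed between mutant p53 and p53-null thymi. Over both mdm2 backgrounds 0 of 23332 features (0%) passed, and 0 of 59 chaperone genes had an unadjusted p under 0.05, against 2.54% of all features. The largest change among the 59 was 0.29, for the low-signal gene Dnajb8, and the limma adjusted p was 1 for every gene. The 4 smallest p were those of Dnajb8, Dnajc2, Dnajc19 and Dnajc11. Dnajc2, a ribosome-associated J-domain protein, measured 8.98 and 8.85 in mutant p53 mdm2-null, 8.74 and 8.82 in p53-null mdm2-null, 8.76, 8.71 and 8.71 in mutant p53 mdm2 wild-type and 8.62, 8.52 and 8.63 in p53-null mdm2 wild-type thymi. Dnajb8 had 4.62 and 4.37 in mutant p53 mdm2-null, 4.59 and 3.94 in p53-null mdm2-null, 4.49, 4.06 and 4.56 in mutant p53 mdm2 wild-type and 3.87, 4.09 and 4.13 in p53-null mdm2 wild-type thymi.

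Dnajc11 was the 1 chaperone gene of 59 (1.69%) whose p53 genotypes did not overlap, as 52 features (0.223%) did not. It measured 8.33 and 8.37 in mutant p53 mdm2-null and 8.38, 8.34 and 8.28 in mutant p53 mdm2 wild-type thymi. In p53-null thymi it had 8.25 and 8.27 without mdm2 and 8.20, 8.23 and 8.23 with wild-type mdm2. The change of 0.11 on the log2 scale (SE 0.06, limma adjusted p = 1) is small, and the gene has the narrowest within-group SD of the 59.

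With wild-type mdm2, 0% of features passed for the p53 genotype, and 1 of 59 chaperone genes (1.69%) had an unadjusted p under 0.05, against 2.96% of all features. That gene was Dnaja3, with 6.90, 6.78 and 6.99 in mutant p53 mdm2 wild-type thymi, against 6.38, 6.52 and 6.78 in p53-null mdm2 wild-type thymi. Its change was 0.33 (SE 0.13, limma adjusted p = 0.9999). Changes were positive for 46 of the 59 genes (78%), against 50.7% of all features, with medians of 0.08 and 0.00. All 59 were measured in the same 6 thymi, so this count, like those of the other comparisons, is not one of independent readings. The genes next in order of p were Dnaja1 (0.46), Dnajb8 (0.34) and Dnajb7 (0.20), and Hsph1 changed by 0.62 (SE 0.51). Dnajb7 measured 3.38, 3.45 and 3.25 in mutant p53 mdm2 wild-type thymi, against 3.22, 3.07 and 3.20 in p53-null mdm2 wild-type thymi, near the bottom of the signal range.

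Without mdm2, 0% of features passed for the p53 genotype, and 3 of 59 chaperone genes (5.08%) had an unadjusted p under 0.05, against 3.87% of all features. Dnajb5 measured 5.64 and 5.67 in mutant p53 mdm2-null thymi, against 6.32 and 6.17 in p53-null mdm2-null thymi, a log2 change of −0.59 (SE 0.17). Dnaja1 changed by −0.94 (SE 0.32). Dnajc19, a subunit of the mitochondrial import motor, had 7.59 and 7.99 in mutant p53 mdm2-null thymi, against 7.25 and 7.35 in p53-null mdm2-null thymi, a change of 0.49 (SE 0.19). Each of the 3 had a limma adjusted p of 0.9999, and the next gene, Dnajc1, changed by −0.32. Changes were positive for 25 of 59 genes (42.4%), against 48.8% of all features, with medians of −0.04 and −0.005.

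The interaction, the p53 change without mdm2 minus that with wild-type mdm2, also gave 0 passing features (0%), and 4 of 59 chaperone genes (6.78%) had an unadjusted p under 0.05, against 4.27% of all features. These were Dnaja1 (−1.41, SE 0.41), Dnajb5 (−0.71, SE 0.21), Dnaja3 (−0.47, SE 0.20) and Dnajb9 (−0.57, SE 0.25), each with a limma adjusted p of 0.995. The difference was positive for 14 of the 59 genes (23.7%), against 48.8% of all features, and it is built from the same samples as the p53 comparisons above. Hsph1 had the most negative difference, −1.64 (SE 0.81, limma adjusted p = 0.995). The 3 samples of highest Hsph1 are 1 of 3 in each mdm2 wild-type group, 1 of 2 in the p53-null mdm2-null group and 0 of 2 in the mutant p53 mdm2-null group.

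**Figure D5:**
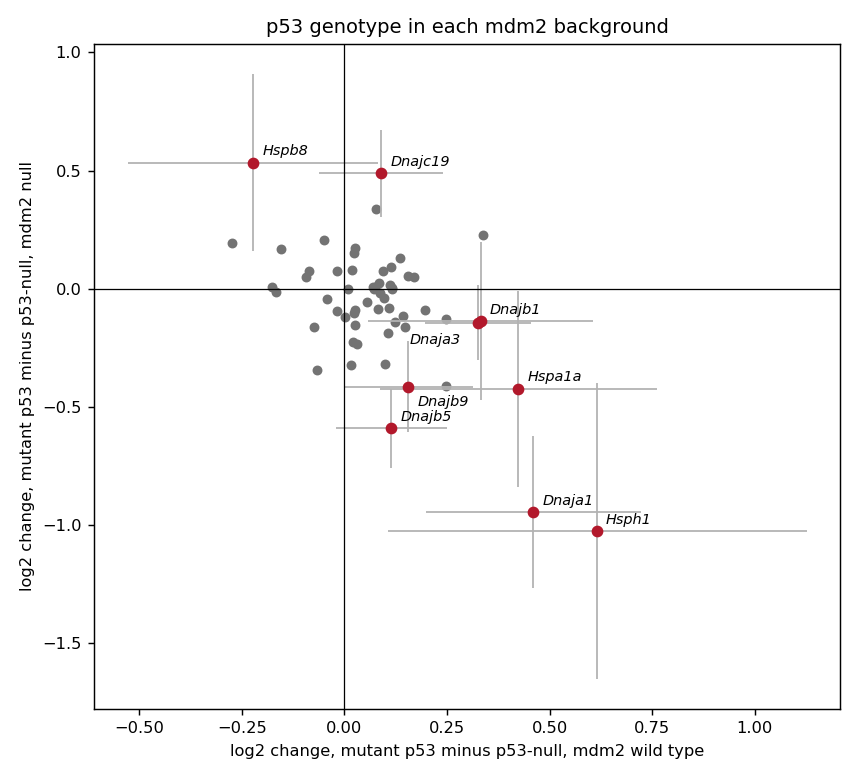
Log2 change of mutant p53 against p53-null thymi with wild-type mdm2 (horizontal) and without mdm2 (vertical) for the 59 genes, with bars of 1 SE in each direction for 9 named genes. Hsph1 (0.62 and −1.02) and Dnaja1 (0.46 and −0.94) lie lowest, and no gene passed in either background.

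The array has 5 features annotated to a gene of these families together with another gene, which the single-symbol rule leaves out. Their changes with mdm2 loss lay between −0.13 and 0.45, none passed, and none had the 3 highest samples of Hsph1. One of them is annotated to both Hspa1l and Hspa1a, with signals of 2.95 to 3.50 near the bottom of the array's range.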

How the data were processed

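Thymus RNA of 10 mice was reduced for ribosomal RNA, amplified and hybridised to a whole-transcript array, per the labels' protocols. The deposited values are log2 signals, 1 per feature and sample, as seen from their range. Partek 6.5 and genome build mm8 are named per the submitters' processing notes, and the normalization and background correction are not given in the sources used here. Of 23332 features, 14996 carry 1 gene symbol, 1019 several and 7317 none in the platform annotation.

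The values were used as deposited. Limma 3.58.1 in R 4.3.3 fitted all features, with additive p53 and mdm2 terms for the comparisons over both levels of the other gene and 1 mean per group for the rest. Tests were two-sided, with Benjamini-Hochberg adjustment over all features and a threshold of 0.05, and were tested on simulated data. SDs within groups were pooled over the 4 groups, with 6 residual degrees of freedom. The number of arrays limits the precision. The genes and lists were chosen with earlier results of these data known. For 24 genes values by sample are given, for some of them only in the groups compared or with a range for mdm2 wild-type samples. These are the 10 measured of 17 listed, the 4 of smallest p in each comparison, and the 6 of largest within-group SD. Dnajb2, Dnajc30 and Chordc1 were added after their values were seen. Lists are described by counts and medians. Alternatives were median centring, quantile normalization, removal of the dimmer 25% or 50% of features, an ordinary linear model, a replicate block, the mean of a gene's features and leaving out each sample. Figures used Python 3.11.15 and matplotlib 3.10.9.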

Additional observations from a re-analysis of the deposited data

Results flagged for a closer look

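Of 48 sets of samples checked over 24 genes, 1 held a sample far from the others. Hspa4 in mdm2 wild-type thymi measured 9.79 in mutant p53 replicate 3 and 9.54 to 9.63 in the other 5 samples, a gap of 0.632 of the whole range. Chance alone gives such a sample in about 1 of 20 sets, so 1 of 48 is not more than chance gives. The same thymus had the highest Hsph1 value.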

How the results depend on the processing

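No chaperone gene passed in the p53 comparisons, the 2 mdm2 comparisons within a p53 genotype or the interaction under any alternative run. For mdm2 loss over both p53 genotypes, 2 genes passed without the dimmer 50% of features (Dnajc17, adjusted p = 0.0484, and Hspa13, adjusted p = 0.0483), where fewer features are tested, and 2 by an ordinary linear model (Dnajb2 and Dnajc2, adjusted p = 0.0498 each), and the cause was not tested. Leaving out 1 sample gave 0 to 1 gene, the 1 being Dnajc17 without mutant p53 mdm2-null replicate 1, while the number of all features passing, 902 with every sample, was 114 to 776. The replicate block gave 0 chaperone genes and 61 features for mdm2 loss. Same-numbered samples correlated between −0.189 and 0.191 in their deviations, 1 of 13 pairs over 0.1, and differently numbered samples between −0.206 and 0.23. In a group of 2 samples the deviations mirror each other, so these values cannot decide whether the numbers pair the samples. Of 666 recomputed log2 changes, 654 kept their direction and call, 3 moved past the threshold and 9 changed sign, none of the 9 passing in either form. The sign changes were in Hsph1, Hspa1a, Hspb8 and Hspa5, all for mdm2 loss. Hsph1 was 0.19 with the replicate block, and Hspa5 was −0.014 under quantile normalization. With 1 sample left out, Hspa1a ranged between −0.063 and 0.28 (−0.014 without p53-null mdm2-null replicate 2, the lowest without p53-null mdm2 wild-type replicate 1), Hspb8 between −0.49 and 0.017 (the highest without p53-null mdm2-null replicate 2) and Hspa5 between −0.051 and 0.081, negative for 4 of the samples. The genes with the 3 highest samples of Hsph1 numbered 6 of 59 under median centring (0.844% of all features), adding Dnajc5, and the same 5 under quantile normalization (0.896%), alternatives chosen after seeing the data. Signals near the low end of the array's range limit what Dnajb3, Dnajb7 and Dnajb8 can show.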

Other observations

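Across the whole array, 163 genes with a single-symbol feature had the 3 highest samples of Hsph1. Ordered by within-group SD, Elavl4 came first (0.857), Hsph1 next (0.748) and Tsc22d3, a glucocorticoid-induced gene, after it (0.658). They were picked after their values were seen, and no list was tested on them.

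The signal annotated to Hsp90aa1 lay between 3.21 and 4.21 in all 10 samples, near the low end of the array's range. Of the Dnajc2 features, the one not used for the gene measured 3.47 to 4.12, with a log2 change of −0.27 for mdm2 loss (limma adjusted p = 0.338), opposite in sign to the 0.19 of the feature used.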
